A study of Mus musculus with 2 samples.

Results

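The mitochondrial ribosome, or mitoribosome, is described here through 81 of the 20656 genes that could be named on the arrays. The members were every gene whose mouse symbol begins with Mrpl or Mrps and a digit, together with Gadd45gip1, which encodes CRIF1, and Dap3 and Ptcd3, whose products are also mitoribosomal proteins. By the position of their proteins, 52 belonged to the large subunit and 28 to the small subunit, and Mrps36 was assigned to neither. The data were 2 single-colour Agilent mouse arrays, 1 of untreated bone marrow-derived macrophages (BMDMs) and 1 of BMDMs exposed to interleukin-4 (IL-4) for 18 h. IL-4 is a type 2 cytokine that drives macrophages towards the M2-like state. Both cultures came from 8-week-old male mice on a C57BL/6 background that carried the floxed Crif1 allele (Crif1 f/f), and no Cre was named for them. These arrays are therefore a comparison of cytokine treatment in cells that share the floxed allele, and not of Crif1 deletion. The bone marrow was differentiated with M-CSF. The IL-4 dose used for the array, the number of mice behind each culture and any pooling are not given in the sources used here.

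Mitochondria translate the few mRNAs of their own genome on a ribosome whose RNA is mitochondrial but whose proteins are all encoded in the nucleus. Those proteins are made in the cytosol and imported, so the mRNAs measured here are the nuclear share of a machine that makes core subunits of the OxPhos complexes. CRIF1 lies on the large subunit near the exit of the peptide tunnel and is needed for insertion of newly made OxPhos subunits into the inner membrane. M2-like macrophages are known for their reliance on oxidative metabolism.

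With 1 array per condition there was no replicate, so no test between conditions was possible and no p-value is given. Each gene was read from its brightest probe, as the log2 of the background-subtracted intensity minus the 75th percentile of the array. A value of 0 on this scaled log2 signal therefore lies at the 75th percentile of the array, and a difference is always IL-4 minus untreated. The error given with a difference is the spot SD, the spread of the log2 difference between spots of 1 probe on the same 2 arrays, taken from 16 to 83 many-spot probes of similar brightness. It was 0.05 on the log2 scale at the median of the members and covers printing and scanning only, not the spread between cultures. Each signal also carried a signal error on its own array, at most 10.8% of the signal for the measured members. For the members' brightest probes that error is wider than the spot SD, and it was not used in the counts past 2 spot SD. A probe counted as measured when it was well above background on both arrays, which held for 12744 genes.

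The cultures carried macrophage markers on both arrays, with all 7 of the listed markers on the array well above background. Their summed scaled signal, on a linear scale, was 324 in untreated and 279 in IL-4-treated cells. Cd14, Fcgr1, Mertk, Itgam and Lyz2 were at least 1.2-fold lower with IL-4, and Csf1r and Adgre1 were not. Of markers of other cells, 6 of 6 neutrophil genes summed to 41.9 and 37.7, and 6 of 6 fibroblast genes to 354 and 324. These sums rest on the brightest genes, and Pdgfra (0.51), Lum (0.52) and the neutrophil gene Mpo (0.30) had positive log2 differences past 1.2-fold while their lists' sums were lower. For dendritic cells 3 of 5 genes were measured, with sums of 31.9 and 32.4, and Flt3 and Xcr1 were not well above background. The sums were nearly all Siglech, at 4.99 and 5.01. The other measured genes, Ccr7 (-0.09) and Zbtb46 (-0.52), were dim, and Zbtb46 was lower past 1.2-fold. The part of these markers in the mitoribosomal values was not tested. In a bulk culture, fewer cells of a type and less RNA per cell cannot be told apart.

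The mitoribosomal genes were slightly higher in IL-4-treated BMDMs, nearly all by a small amount. Of the 81 genes, 80 were measured. Their median log2 difference was 0.14, and it was -0.01 over all measured genes. The difference was above 0 in 75 of the 80, against 47.7% of all measured genes. It reached 1.2-fold higher in 15 of 80, or 18.8%, against 14.5% of all genes, and 1.2-fold lower in 0 of 80, against 18.1%. Among the 15 was Mrps36, whose protein has since been placed outside the ribosome. The share past 1.2-fold higher was thus near the background, and the gap lay in the lower tail and in the sign. Past 1.5-fold only Mrpl47 was higher, against 5.03% of all genes, and none was lower, against 5.27%. None was past 2-fold, against 2.31% higher and 1.44% lower.

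**Figure D1:**
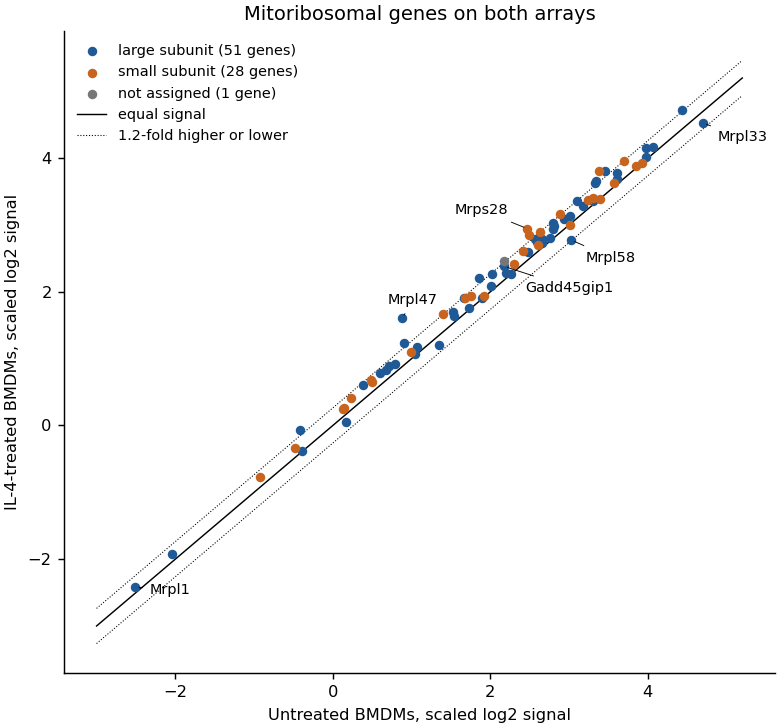
Scaled log2 signal of the 80 measured mitoribosomal genes in untreated (x axis) and IL-4-treated BMDMs (y axis), 1 point per gene, coloured by subunit, with lines for equal signal and for 1.2-fold higher or lower. Most points lie just above the line of equal signal, 15 lie on or above the upper 1.2-fold line and none below the lower one.

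The members were also closer to each other than genes in general. The middle 50% of the 80 differences ran from 0.08 to 0.23, and that of all measured genes from -0.19 to 0.15. Their SD was 0.14, and that of all genes was 0.44. For 82 measured genes of cytosolic ribosomal proteins the SD was 0.12, with 1 past 1.2-fold downwards. For 26 measured genes of mitoribosome assembly and rRNA modification it was 0.16. Closeness and a nearly empty lower tail were thus not particular to the members. Against the spot SD, 51 members were higher by over 2 SD, against 27.6% of all genes with a spot SD, and 3 were lower by over 2 SD, against 29.0%. The other 26 lay within 2 spot SD of 0. The members' median difference was of the size of the signal error of 1 array, so these counts do not show differences beyond that error. Brightness did not run with the difference among members, with a Pearson r of -0.00 across the 80 genes, while across all measured genes on the same 2 arrays r was 0.17. The 3101 genes in the signal range of the members' middle 50% had a median of 0.03 and an SD of 0.35. Of them, 55.6% were above 0, 14.8% were past 1.2-fold upwards and 10.3% downwards.

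**Figure D2:**
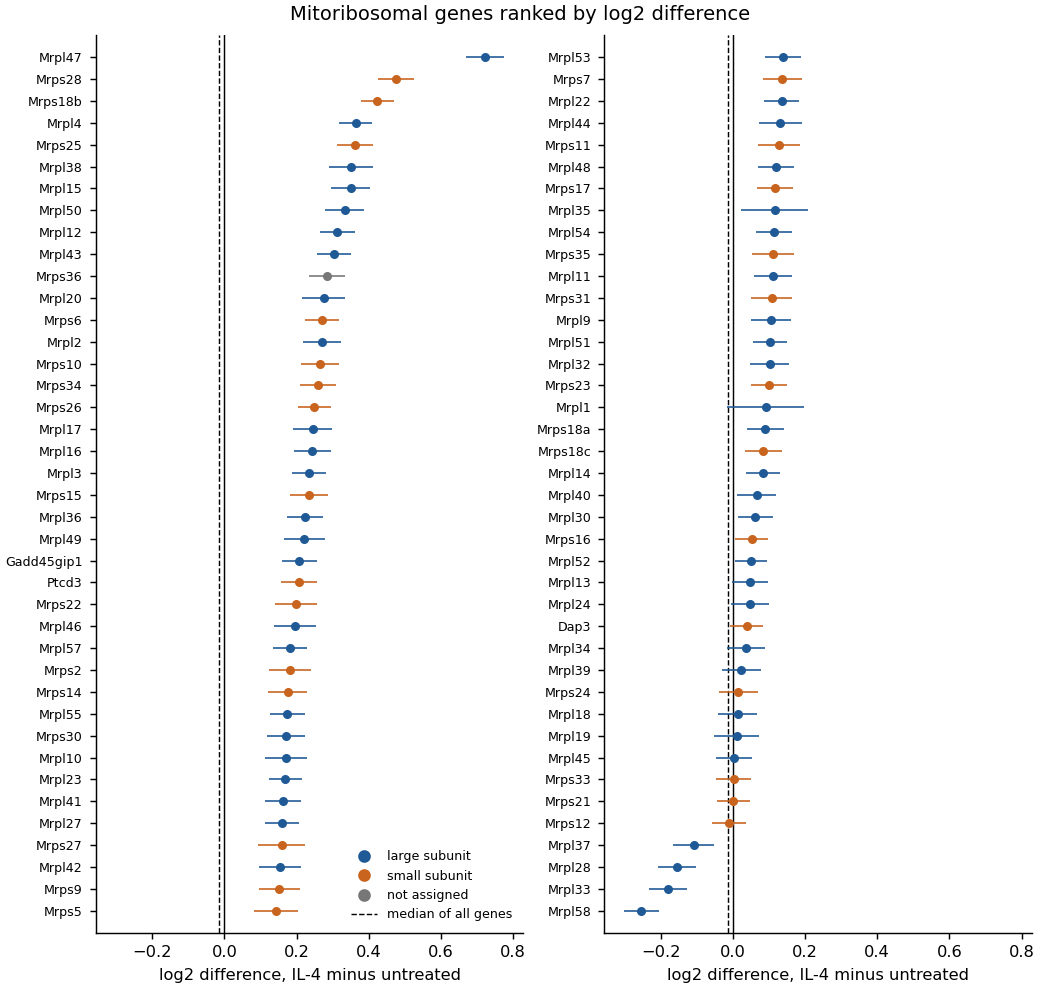
Log2 difference (IL-4 minus untreated, x axis) of each measured mitoribosomal gene, ranked from the highest to the lowest over both panels, with bars of 1 spot SD and a dashed line at the median of all genes. The values run from 0.72 for Mrpl47 to -0.25 for Mrpl58, and the 4 lowest genes run from -0.11 for Mrpl37 downwards.

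CRIF1 was among the members with a modest positive difference. The brighter Gadd45gip1 probe read an intensity of 4128 in untreated and 5108 in IL-4-treated BMDMs, which became scaled log2 signals of 2.17 and 2.38. The log2 difference was 0.21 ± 0.05 (spot SD), a 1.16-fold higher signal with IL-4. The wider signal errors of both arrays are not in this SD. The dimmer probe for the same accession gave -4.38 and -4.27, a difference of 0.11 ± 0.23 (spot SD) that lay well within its error. Neither probe reached 1.2-fold, and the value for CRIF1 rests on the brighter probe. The difference stayed above 0 under all 12 ways of scaling and reading the arrays that were tried, from 0.11 to 0.55.

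The other members without an Mrp symbol are small-subunit proteins. Dap3, a GTP-binding protein first known as death-associated protein, gave scaled log2 signals of 3.85 and 3.89, a difference of 0.04 that lay within 2 spot SD. Its dimmer probe gave -0.02, so its sign was not settled by these arrays. Ptcd3, a pentatricopeptide repeat protein at the mRNA entrance, gave 2.41 and 2.62, a difference of 0.21 ± 0.05 (spot SD) that was close to that of Gadd45gip1.

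Both subunits showed a small positive difference. The 51 measured large-subunit genes had a median log2 difference of 0.14, with 47 above 0 and 9 (17.6%) at least 1.2-fold higher. The 28 small-subunit genes had a median of 0.15, with 27 above 0 and 5 (17.9%) at least 1.2-fold higher. Of all measured genes, 47.7% were above 0 and 14.5% at least 1.2-fold higher, so the shares past 1.2-fold were near the background. The medians differed by -0.01, large minus small, which is below the spot SD. Proteins of families shared with bacterial ribosomes and proteins specific to mitochondria were also alike in size, with medians of 0.14 over 45 genes and 0.15 over 34 genes.

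In the large subunit, Mrpl47 had the highest difference of all members. Mrpl47 is the mitochondrial form of the L29 family, found at the exit of the peptide tunnel. Its brighter probe gave scaled log2 signals of 0.88 and 1.60, a difference of 0.72 ± 0.05 (spot SD), or 1.65-fold. Its dimmer probe, for the same accession, gave -1.88 and -1.76, a difference of 0.12 ± 0.09 (spot SD) that lay within 2 spot SD. The gap of 0.60 was the largest among the genes with 2 probes, so the leading value of the set rested on 1 probe.

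The next large-subunit genes lay between 1.2-fold and 1.3-fold. Mrpl4, of the family that lines the peptide tunnel, read 3.45 and 3.81, a difference of 0.36, while its dimmer probe gave 0.18. Mrpl38, a protein specific to mitochondria, read -0.41 and -0.06, a difference of 0.35 from its only probe. Mrpl15 read 1.86 and 2.21, a difference of 0.35, and its dimmer probe gave 0.38. For Mrpl15 both probes thus passed 1.2-fold. Mrpl50 had a difference of 0.33, Mrpl12, a stalk protein that recruits translation factors, 0.31, and Mrpl43 0.30. The dimmer probe of Mrpl50 gave 0.27, and that of Mrpl43 gave 0.10, which is under 1.2-fold. Mrpl20 (0.28) and Mrpl2 (0.27) lay just above the 1.2-fold threshold of 0.263.

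The lowest members were also large-subunit genes. Mrpl58, a peptidyl-tRNA hydrolase built into the mitoribosome that can release stalled peptides, read 3.03 and 2.78, a difference of -0.25 ± 0.05 (spot SD) that fell just short of 1.2-fold. Mrpl33 read 4.70 and 4.52, a difference of -0.18. Mrpl28 read intensities of 2340 and 2253, which after scaling was a difference of -0.15. Mrpl37 read 0.16 and 0.05, a difference of -0.11 that lay within 2 spot SD. The first 3 of them were lower by over 2 spot SD. All 4 turned above 0 when the arrays were scaled to the spike-in probes, and all but Mrpl58 also with scaling to each array's median. Mrpl21 was the 1 member not well above background on either array, at -7.14 and -6.06, so no fold is given for it.

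In the small subunit, Mrps28 led. Mrps28 belongs to the S1 family, and its probe read 2.47 and 2.95, a difference of 0.48 ± 0.05 (spot SD), or 1.39-fold. Mrps18b read 3.38 and 3.80, a difference of 0.42, and its dimmer probe gave 0.33. Mrps25 read 2.49 and 2.85, a difference of 0.36, and its dimmer probe gave 0.17. Mrps6 and Mrps10 had differences of 0.27, and Mrps34, at 0.26, lay just under the threshold. Mrps12, whose protein sits at the decoding centre, read 3.01 and 3.00, and Mrps21 read 3.93 on both arrays. The -0.01 of Mrps12 was the lowest difference in the small subunit.

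The 3 mouse Mrps18 paralogs, relatives of 1 bacterial protein, had unequal differences. Mrps18b, in the small subunit, had the 0.42 given above. Mrps18a, whose protein sits in the large subunit, read 2.19 and 2.28, a difference of 0.09. Mrps18c, in the small subunit, read 2.61 and 2.70, a difference of 0.08. Cross-hybridization between the paralogs was not tested. Mrps36, a protein since placed in the 2-oxoglutarate dehydrogenase complex rather than in the ribosome, read 2.17 and 2.46, a difference of 0.28, and its dimmer probe also gave 0.28. Mrps36, Mrpl23, Mrpl27 and Mrpl48 have named pseudogenes in the RefSeq table, and whether their probes read those copies was not tested.

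The members spanned a wide range of brightness, which belongs to the probe and does not rank the genes by RNA. The brightest probes were those of Mrpl33, described above, of Mrpl20, at 4.44 and 4.72, and of Mrpl51, at 4.07 and 4.17. The dimmest measured probes were those of Mrpl1, at -2.51 and -2.42 with a spot SD of 0.11, of Mrpl35, at -2.04 and -1.92, and of Mrps27, at -0.92 and -0.76. The 3 dimmest had differences of 0.09, 0.12 and 0.16. Those of Mrpl1 and Mrpl35 lay within 2 spot SD of 0 and were negative under normexp, at -0.03 and -0.0030.

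Genes read by 2 probes gave a check of the small differences within the same arrays. All 24 such genes were measured at both probes, and 23 of the pairs named the same accession. Both probes were higher in IL-4-treated BMDMs for 21 genes, the signs were opposite for Dap3, Mrps33 and Mrps7, and for none were both probes lower. The median was 0.18 at the brighter and 0.13 at the dimmer probes. At least 1.2-fold higher were 5 of the 24 dimmer probes, against 14.3% of all genes read from their dimmest measured probe. By their own spot SD, 11 of the 24 dimmer probes were higher by over 2 SD and none lower. Of all genes, read from their brightest probe, 27.6% were higher and 29.0% lower by over 2 SD. The median gap between probes of a gene was 0.06, close to the spot SD. The probes of a gene share the RNA and the arrays, so their r of 0.56 is a description only.

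**Figure D3:**
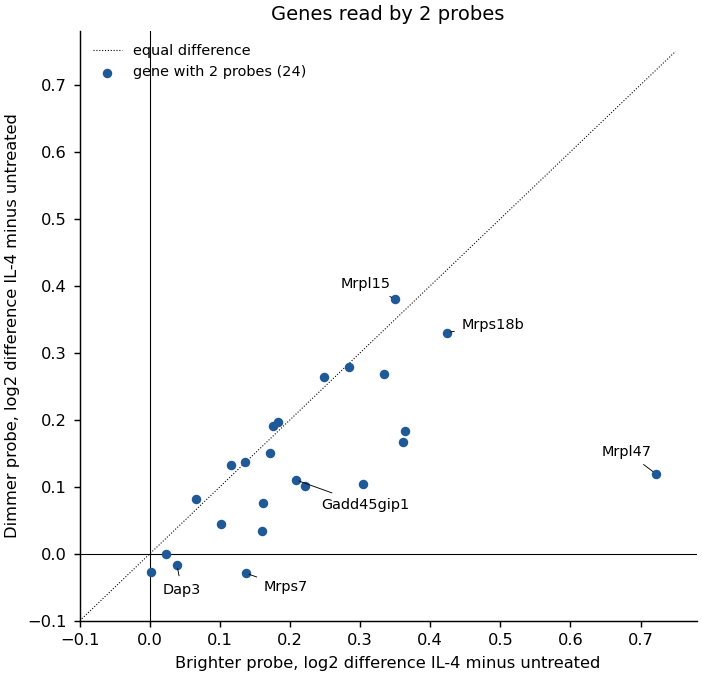
Log2 difference (IL-4 minus untreated) at the brighter probe (x axis) and the dimmer probe (y axis) of the 24 mitoribosomal genes with 2 probes, with a dotted line at equal differences. For 21 genes both values are above 0, and Mrpl47 lies farthest from the line, at 0.72 and 0.12.

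For 3 members the brightest probe was printed in many spots, which shows the size of the printing error directly. The 9 spots of Mrpl50 averaged a difference of 0.33 (SD 0.05) and ranged from 0.27 to 0.44. The 10 spots of Mrps35 averaged 0.11 (SD 0.05), from 0.05 to 0.20. The 10 spots of Mrpl34 averaged 0.04 (SD 0.08), from -0.10 to 0.16. All spots of Mrpl50 and Mrps35 were thus above 0, and those of Mrpl34 fell on both sides.

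The promoters of the members were then read for the motifs of factors known to control nuclear genes of mitochondrial proteins. The RefSeq table (GRCm38.p6) gave windows from 250 bases before to 50 after the start for 70 of the 81 members. Gadd45gip1 and Dap3 were among the genes with no entry. The 4 stretches below end at the base before the start site and show 1 member for the NRF1 motif, 1 for the ETS motif bound by GABP, 1 for the E-box bound by MYC, and the member with the highest difference, in which none of the searched motifs was found. They are written 5′ to 3′ on the strand of the gene, and the capitals mark the matches.

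Mrpl32 (GRCm38.p6, chr13:14613038-14613157, minus strand, NRF1 motif and its core in capitals): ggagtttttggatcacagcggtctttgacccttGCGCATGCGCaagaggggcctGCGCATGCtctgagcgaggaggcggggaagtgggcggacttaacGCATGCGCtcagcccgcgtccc

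Mrpl3 (GRCm38.p6, chr9:105053148-105053267, plus strand, ETS motif in capitals): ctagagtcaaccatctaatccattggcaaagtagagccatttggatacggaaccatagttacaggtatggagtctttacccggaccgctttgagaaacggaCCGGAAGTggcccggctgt

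Mrpl20 (GRCm38.p6, chr4:155802758-155802877, plus strand, E-box in capitals): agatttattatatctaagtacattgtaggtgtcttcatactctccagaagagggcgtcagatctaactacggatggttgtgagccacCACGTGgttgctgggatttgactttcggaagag

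Mrpl47 (GRCm38.p6, chr3:32736756-32736875, minus strand, no match): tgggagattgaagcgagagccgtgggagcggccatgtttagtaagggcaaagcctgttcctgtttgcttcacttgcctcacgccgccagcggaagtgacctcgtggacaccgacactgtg

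Exact matches were counted on both strands. The NRF1 core GCATGCGC was found in 8 of 70 members (11.4%), against 3.05% of all 27025 genes with a window and 5.79% of the 10164 of them that were measured. The full NRF1 motif, which is this core preceded by GC and so always overlaps a core, was found in 3 members (4.29%), Mrpl32, Mrpl39 and Mrpl9, against 1.07% of all and 2.17% of measured genes. The ETS motif CCGGAAGT was found in 12 members (17.1%), against 4.31% of all and 8.77% of measured genes, and in 12 of 62 genes of cytosolic ribosomal proteins (19.4%), a share above that of the members. The YY1 motif AAGATGGCG was found in 9 members (12.9%), against 1.64% of all and 3.47% of measured genes. At least 1 of the NRF1 core, ETS and YY1 motifs stood in 27 of 70 members (38.6%), 16.9% of measured genes and 29.0% of the cytosolic ribosomal protein genes.

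The E-box CACGTG was found in 5 members (7.14%), against 8.09% of all and 11.8% of measured genes. The motif of STAT6, the factor activated by IL-4, is TTC and GAA with 4 bases between them. It was found in 3 members (4.29%), Mrpl44, Mrpl53 and Mrps17, against 8.01% of all and 6.69% of measured genes. The members with a motif differed little in response from those without it. The median log2 difference was 0.14 with and 0.14 without the ETS motif, 0.13 and 0.14 for YY1, 0.12 and 0.14 for the NRF1 core, and 0.13 and 0.15 for the STAT6 motif. It was 0.22 for the 5 members with an E-box and 0.14 for the others. A match is a run of letters and not a site shown to be bound, and these counts draw no link between a factor and the arrays.

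Mrps11 and Mrpl46 start back to back on chromosome 7, at 78783131 on the plus strand and 78783089 on the minus strand, with 41 bases between them. The pair thus shares its upstream DNA across both subunits. Mrps11 had a difference of 0.13 and Mrpl46 of 0.20.

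The regulators of mitochondrial biogenesis themselves lay on both sides of 0 and over a wide range. Of 8 measured genes, 7 were above 0, 3 were at least 1.2-fold higher and none lower, against 47.7%, 14.5% and 18.1% of all genes. Myc, a growth regulator, read 0.28 and 1.11, a difference of 0.83. Pprc1, a coactivator of the PGC-1 family, read -2.30 and -1.88, a difference of 0.42, and Esrra, the receptor ERRα, read 2.63 and 3.02, a difference of 0.39. Nrf1 had a difference of 0.07, Yy1 0.07, Gabpb1 0.06, Sirt1 0.02 and Gabpa -0.17. Ppargc1b, which encodes PGC-1β, was well above background with IL-4 only, at -4.09 against -6.21. Set against the dimmest signal well above background on the untreated array, its difference was 0.88, or 1.84-fold. The spot SD at its brightness was 0.34, and that dimmest signal is not a measured limit of detection. Ppargc1a, which encodes PGC-1α, had no probe well above background.

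Other genes of mitochondrial translation lay on both sides of 0, in lists chosen by function. Beside the counts below, 47.7% of all measured genes were above 0, 14.5% passed 1.2-fold upwards and 18.1% downwards. Of 26 measured genes of mitoribosome assembly and rRNA modification, 14 were above 0, 2 passed 1.2-fold upwards and 2 downwards, with a median of 0.03. Rcc1l (0.31) and the GTPase gene Mtg1 (0.28) were the highest of them, and Ptcd1 (-0.42) and the rRNA methyltransferase gene Mettl15 (-0.36) the lowest. Of 17 translation factors, 11 were above 0, 3 were at least 1.2-fold higher and none lower, with a median of 0.12. The elongation factor genes Gfm1 (0.35) and Tsfm (0.32) were the highest, and the recycling factor gene Mrrf (-0.23) and the methionine aminopeptidase gene Metap1d (-0.18) the lowest. Mrrf was dim, with a spot SD of 0.21, and lay within 2 spot SD of 0.

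The list of aminoacyl-tRNA synthesis had 19 measured genes, with a median of 0.10. Of these, 15 were above 0, 3 (15.8%) were at least 1.2-fold higher and 1 lower, against 47.7%, 14.5% and 18.1% of all genes. Ears2 (0.59) and Gatc (0.35), which both serve the charging of glutamate or glutamine tRNA, were the highest, and Pars2 (-0.48) and Fars2 (-0.15) the lowest. For mitochondrial DNA upkeep, transcription and RNA processing, 6 of 22 measured genes (27.3%) were at least 1.2-fold higher and none lower. The shares of all genes were again 14.5% and 18.1%. Of the 22 genes, 18 were above 0, and their median was 0.17, against 0.14 for the mitoribosomal genes. Fastkd1 (0.65) and the exonuclease gene Mgme1 (0.50) were the highest, and the RNase P subunit gene Prorp (-0.18) and the polymerase gene Polg (-0.17) the lowest. Mgme1 was dim, with a spot SD of 0.19, and Prorp, with a spot SD of 0.12, lay within 2 spot SD of 0. The mitoribosomal proteins with other symbols, Chchd1 and Aurkaip1, had differences of 0.17 and 0.05. The OxPhos subunit genes Uqcrc2, Ndufa9, Atp5a1 and Cox4i1 had 0.18, 0.15, 0.13 and 0.05, all in the range of the mitoribosomal genes.

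The proteins of the cytosolic ribosome showed a smaller median. Of 82 measured genes, 50 were above 0, with a median of 0.03. At least 1.2-fold higher were 2 (Rps26 and Rpl9), and Rps21 was 1.2-fold lower, against 14.5% and 18.1% of all genes. The sign of the cytosolic median depended on the scaling, as it was -0.04 under cyclic loess and -0.03 when the percentile was taken over measured probes. The median of the mitoribosomal genes was above that of the cytosolic genes under every setting tried. Scalings that subtract 1 value per array cannot change that order. Among settings that can, the mitoribosomal and cytosolic medians were 0.10 and 0.00 under quantile normalization. They were 0.13 and -0.04 under cyclic loess, and 0.16 and 0.05 under normexp. Whether the 2 lists differ beyond the spread between cultures was not tested, since there was 1 array per condition.

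**Figure D4:**
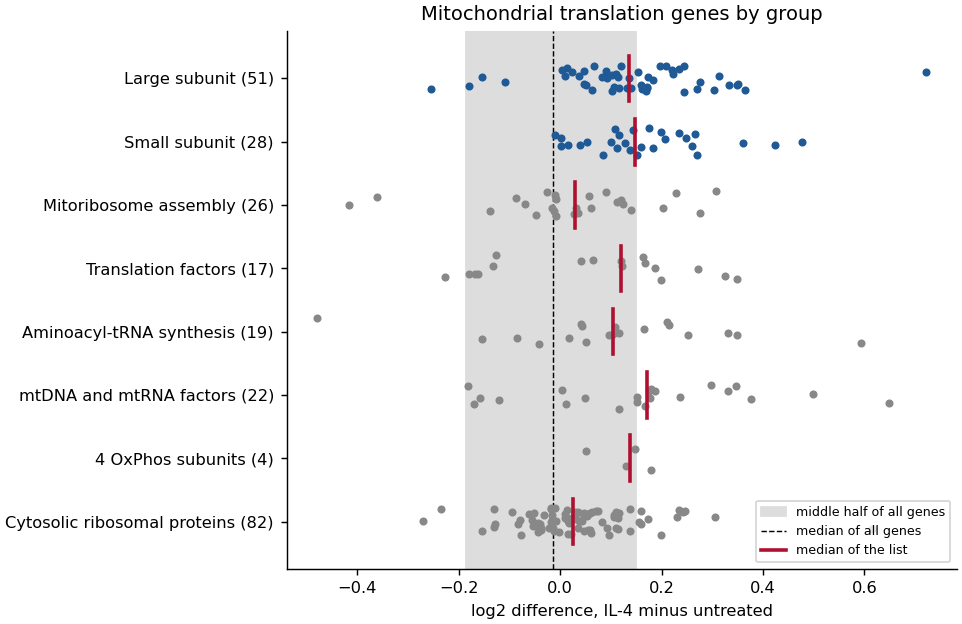
Log2 difference (IL-4 minus untreated, x axis) of the measured genes in each list, 1 point per gene, with the list median as a red bar, the median of all genes as a dashed line and the middle 50% of all genes shaded. The medians of both mitoribosomal subunits lie at 0.14 and 0.15, and that of the cytosolic ribosomal proteins at 0.03.

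**Figure D5:**
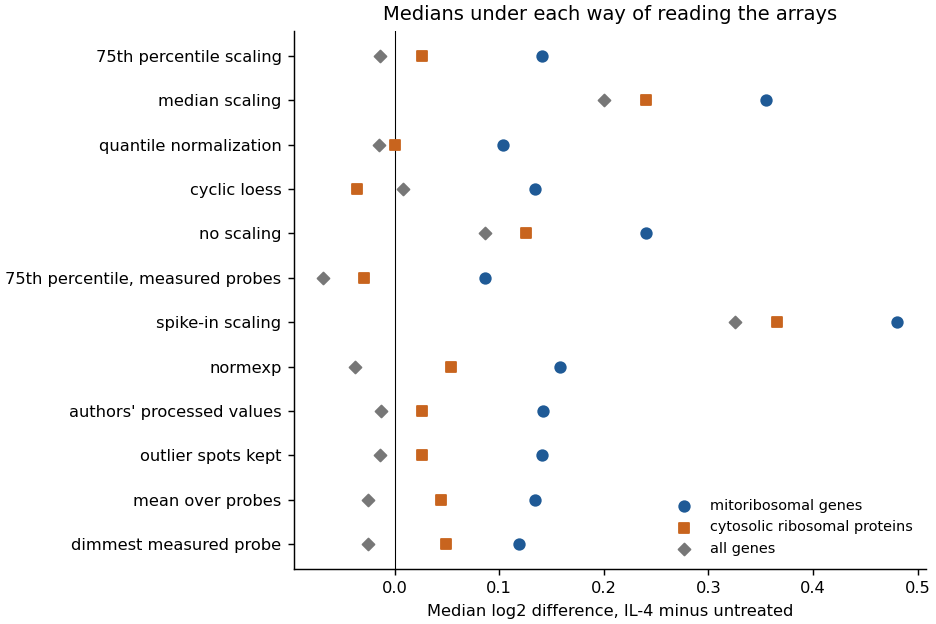
Median log2 difference (IL-4 minus untreated, x axis) of the mitoribosomal genes, the cytosolic ribosomal protein genes and all genes under each of 12 ways of scaling and reading the arrays. The mitoribosomal median runs from 0.09 to 0.48 and is to the right of the other medians in every row, while the medians of all genes move from -0.07 to 0.33.

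How far the members stood above 0 depended on the scaling, and their median ranged from 0.09 to 0.48 over the 12 settings. The distance of that median to the median of all genes cannot change where only 1 value per array is subtracted. It was thus 0.15 with median, spike-in, percentile and no scaling alike. Over the other settings, some of which could change it, it was 0.12 to 0.20. Of the 80 measured members, 58 were above 0 in every setting and none was below 0 in every setting. The number of members at least 1.2-fold higher moved between 8 and 76 of 80, while the share of all genes moved between 11.6% and 61.0%. With 8 of 80, under quantile normalization and under the percentile over measured probes, the members' share was below that of all genes, which was 15.7% and 11.6%. The same held under cyclic loess, with 10 of 80 against 16.9% of all genes. Under normexp the members' share was above that of all genes, with 21 of 80 against 11.7%. The count of 15 was also found with the authors' processed values and with outlier spots kept. Both nearly repeat the main setting, with medians of all genes of -0.0131 and -0.0138 against -0.0137, so they are no separate check.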

How the data were processed

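RNA of untreated and IL-4-treated BMDMs was hybridized to 1 array each. The authors deposited Feature Extraction 10.10.1.1 output, with spot intensity corrected for background and spatial trend within its own array. The authors also deposited processed log2 values, whose method is not given in the sources used here. Control spots and outlier spots (133 and 159 of 43020 gene spots) were left out, log2 intensity was averaged over the spots of a probe, and the 75th percentile of each array (9.84 and 9.94) was subtracted. No spot was saturated, and 59.8% and 57.4% were well above background. The number of arrays limits the precision.

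Of 39424 probes, 27229 were named through RefSeq accessions (GRCm38.p6), giving 20656 genes. The array design was annotated on mm9, so coordinates are given only for the RefSeq promoter windows. Members had 105 probes. A further 6 symbols that fit the rule are pseudogenes and were not analysed here. Named members are Gadd45gip1, Dap3, Ptcd3, the 6 highest and 6 lowest, the 3 brightest and 3 dimmest, the Mrps18 paralogs, any member not measured, any with probes over 0.5 apart, and, chosen after their values were seen, the other members past 1.2-fold, those beside that threshold, those with many spots and those with a printed or discussed promoter. Members and gene lists were chosen with earlier results of these data known. The 1.2-fold threshold is a description of size, not a test. Alternatives were run with Python 3.11.15 and, in R 4.3.3, limma 3.58.1 (quantile, cyclic loess, normexp with offset 50). Counting was also tested on simulated data, with noise of 0.1 and 200 changes of 0.6 on the log2 scale, and 200 were recovered. Those changes were larger than the difference of every measured member but Mrpl47, so the simulation does not bear on differences of the members' size. A further list of cell type markers is not reported here.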

Additional observations from a re-analysis of the deposited data

How the results depend on the processing

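The direction of the mitoribosomal median, of its distance to all genes and of Gadd45gip1 was positive under every alternative run, but sizes and counts moved with the scaling. The distance to all genes could not change under scalings that subtract 1 value per array. In the main setting the median was 0.14, Gadd45gip1 0.21, and 15 members were at least 1.2-fold higher (14.5% of all genes) and 0 lower (18.1%). Scaling to each array's median gave 0.36, 0.42 and 64 higher (39.6% of all genes). Without scaling these were 0.24, 0.31 and 34 higher (23.5% of all genes). Scaling to 8 spike-in probes gave 0.48, 0.55 and 76 higher (61.0% of all genes). The 75th percentile over measured probes gave 0.086, 0.15, 8 higher (11.6% of all genes) and 1 lower (22.8%). Quantile normalization gave 0.14 for Gadd45gip1, 8 higher (15.7% of all genes) and 2 lower (16.5%). Cyclic loess gave 10 higher (16.9% of all genes) and 1 lower (14.9%). Normexp gave 0.29 for Gadd45gip1, 21 higher (11.7% of all genes) and 1 lower (18.7%). The dimmest measured probe gave 0.11 for Gadd45gip1. Without a filter on dim probes the distance of the median to that of all genes was 0.26 instead of 0.15. At 1.5-fold and 2-fold, 1 and 0 members were higher. The shift of the median of all genes was 0.20 with median scaling and 0.33 with spike-in scaling, so the larger counts came with a shift of all genes. The authors' processed values and kept outlier spots nearly repeat the main setting. These settings and the mean over probes moved none of the results above by over 1.5 times.

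Among named members, the sign turned with median scaling for Mrpl28 (0.060), Mrpl33 (0.035) and Mrpl37 (0.11), and with spike-in scaling for Mrpl28 (0.19), Mrpl33 (0.16), Mrpl37 (0.23) and Mrpl58 (0.085). It also turned for Mrpl35 with normexp (-0.0030) and for Mrpl51 with quantile normalization (-0.0016). Among values within 2 spot SD of 0, the sign also turned for Mrps12 (0.20 with median and 0.33 with spike-in scaling), Mrps21 and Dap3 (-0.10 and -0.06 with quantile normalization) and Mrpl1 (-0.03 with normexp), among other settings. The cause was not tested beyond the shift of all genes. Of 22 measured members named by rule, 12 kept their sign under all 12 settings. The medians at the second probes and the counts above 0 under each scaling were chosen after seeing the data. No paired analysis was possible because neither condition has a second array. Dim probes limit Mrpl21 and Ppargc1a, whose probes were near background on both arrays.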
